A study of Homo sapiens with 6 samples.

Results

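Ribosomes are assembled in the nucleolus, where RNA polymerase I transcribes the precursor of the ribosomal RNAs. Small nucleolar ribonucleoproteins (snoRNPs), each a guide RNA with a set of core proteins, modify that precursor: box C/D particles place methyl groups on ribose and box H/ACA particles turn uridine into pseudouridine. Other factors fold, cut and package the precursor into the small and the large ribosomal subunit, and many guide RNAs of the snoRNPs are cut from introns of host genes, SNHG5 among them. The genes described here are 41 named snoRNP, ribosomal RNA processing and RNA polymerase I genes, picked by symbol from 20030 gene names in a count table. All 41 were found and all 41 passed the filter on low counts.

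The libraries were mRNA-seq profiles of KGN cells, a human line derived from an ovarian granulosa cell tumour, collected 48 h after transfection. Of the 6 libraries, 3 came from cells given a negative control siRNA (labelled wild type) and 3 from cells given siRNA against the long noncoding RNA SNHG5 (labelled SNHG5 knockdown). The study asked how the KGN transcriptome differs after SNHG5 is knocked down. The count table holds 0 rows named SNHG5, so the depth of the knockdown could not be read from it. The snoRNAs were not analysed here. The labels give 1 cell line and do not say whether replicates were separate cultures, and the p-values then reflect no more than the spread among these libraries.

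Depth was similar in all libraries, with 18232634 to 22088913 counts each. Granulosa genes FOXL2, NR5A1, STAR, INHBA and AMH were present, at 12.4 to 59.4 CPM (counts relative to the library total, on a common scale) on average in control siRNA. FSHR was low, at 3.25 CPM, and the defining granulosa genes CYP19A1, INHA and AMHR2 were near 0, at 0.235, 0.410 and 0.051 CPM. The theca genes CYP17A1, LHCGR and INSL3, the T cell gene CD3E and the endothelial gene CDH5 were at 0 in every library. Of the other leukocyte and endothelial genes, the lysosomal CD68 averaged 22.3 CPM in control siRNA and 26.0 CPM in SNHG5 siRNA, PTPRC 2.35 and 1.91, VWF 1.59 and 1.74, and PECAM1 0.288 and 0.240 CPM. Among the SNHG5 siRNA libraries, replicate 2 stood apart: the chi-square per degree of freedom of its counts against them was 8.62 and 8.82, against 1.91 for the other pair of its group and 3.10 to 4.41 among the controls.

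Levels per gene length, in the deposited FPKM (fragments divided by transcript length and depth), spanned a wide range within the group. NPM1, a nucleolar histone and ribosome chaperone, led with 435 ± 10.0 FPKM in control siRNA and 408 ± 13.6 FPKM in SNHG5 siRNA (mean ± SD, n = 3). NCL, which encodes nucleolin and binds ribosomal RNA precursors, followed with 219 ± 5.03 and 209 ± 4.64 FPKM. No other gene of the group reached 200 FPKM in either group. Next came the snoRNP core proteins: NOP10 at 144 ± 8.44 and 171 ± 20.3 FPKM, NHP2 at 88.6 ± 2.19 and 93.5 ± 4.25 FPKM, and FBL at 67.6 ± 4.16 and 72.7 ± 7.02 FPKM. These 3 core proteins stood above every subunit assembly factor, of which UTP4 had the highest small subunit level (29.9 ± 0.939 and 28.0 ± 0.766 FPKM) and BOP1 the highest large subunit level (28.1 ± 1.08 and 27.6 ± 2.53 FPKM). Neighbours in the middle of the order often differed by less than their SD, as UTP4 and BOP1 did in SNHG5 siRNA. The lowest was RRP8, a nucleolar methyltransferase, at 1.49 ± 0.120 and 1.37 ± 0.0575 FPKM. NOLC1 moved most in this order, from 14.4 ± 0.794 FPKM in control siRNA to 39.1 ± 0.489 FPKM in SNHG5 siRNA.

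**Figure D1:**
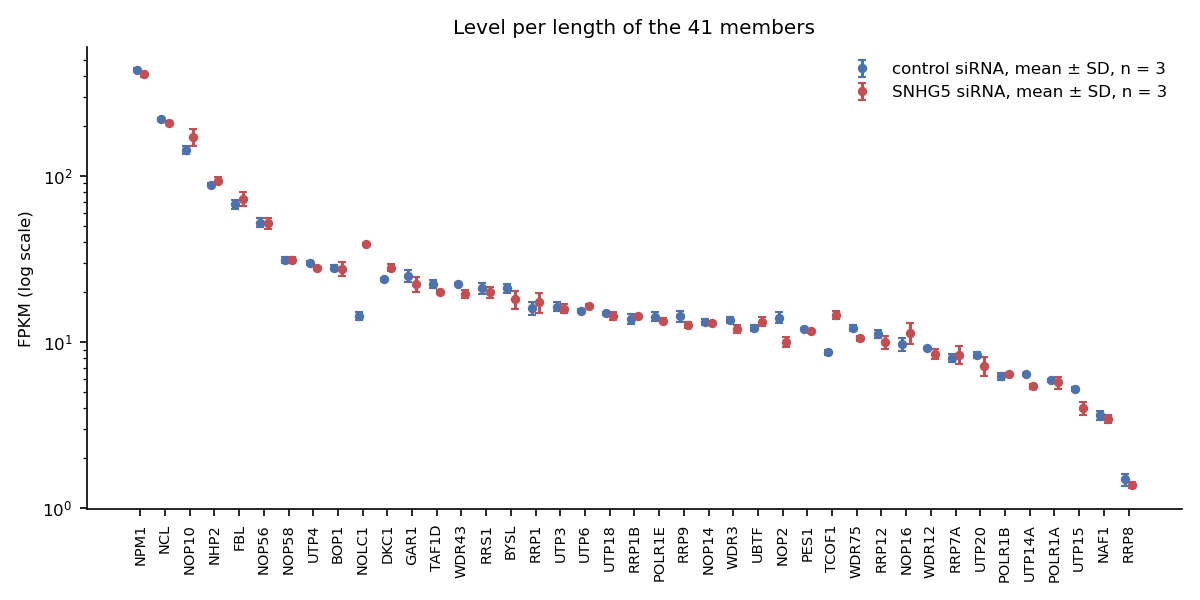
FPKM (log axis) of the 41 genes, ordered by their mean over all libraries; points are group means and bars the SD of 3 libraries, in blue for control siRNA and red for SNHG5 siRNA. NPM1 and NCL lead at over 200 FPKM, RRP8 is lowest, and the points of NOLC1 lie farthest apart.

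With SNHG5 siRNA, transcripts of 4 of the 41 genes rose (NOLC1, TCOF1, DKC1 and NOP10) and those of 13 fell, led by NOP2, RRP9, BYSL and RRP12; the remaining 24 did not pass. The threshold was an adjusted p of 0.05 in edgeR's quasi-likelihood test, fitted on all 12508 tested genes with Benjamini-Hochberg adjustment. The 17 that passed were 41.5% of the group, close to the 40.2% of all tested genes that passed. The genes that rose were 9.76% of the group, against 20.3% of all tested genes, and those that fell were 31.7%, against 19.9%. Of all passing genes, 50.5% were higher with the trimmed mean scaling used here and 39.9% with upper quartile scaling. Upper quartile scaling moved the median log2 fold change of all genes from -0.0052 to -0.046.

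The differences were small for most of the group. The median log2 fold change over the 41 genes was -0.084, with 28 genes below 0, and the median size of the change was 0.11, against 0.17 over all tested genes. CPM of the 3 control libraries and the 3 SNHG5 siRNA libraries did not overlap for 21 genes (51.2%), against 49.8% of all tested genes. For the 24 genes that did not pass, the 95% intervals of the log2 fold change lay between -0.33 and 0.23. SNHG5 siRNA replicate 2 held the highest value of its group for 27 of the 41 genes (65.9%), against 39.9% of all tested genes, and its part in the counts was not tested. Without it, 3 of the 41 genes rose and 14 fell (34.1%, against 21.7% of all tested genes). The share that fell was close to that of all tested genes in several other fits. Without control replicate 1 it was 7 genes, 17.1% against 15.5%, without control replicate 2 it was 6 genes, 14.6% against 15.6%, and without control replicate 3 it was 8 genes, 19.5% against 16.4%. Without SNHG5 siRNA replicate 1 it was 7 genes, 17.1% against 16.0%. In limma on log2(FPKM + 1) 6 genes fell, 14.6% against 13.8% of all tested genes, on log2(FPKM + 0.1) 7 genes, 17.1% against 13.8%, and on log2(FPKM + 1) with no filter 5 genes, 12.2% against 9.95%. The share that fell stayed larger with upper quartile scaling (41.5% against 24.7%), a replicate block (36.6% against 22.9%) and DESeq2 (24.4% against 17.2%). It was also larger with the GC or the length trend removed, with no filter on low counts and without SNHG5 siRNA replicate 3. Whether falls were in excess in the group, and by how much, thus depended on the fit and on single libraries. The share that rose was 7.32% to 9.76% over the 15 alternatives, in each below that of all tested genes (12.8% to 22.8%).

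**Figure D2:**
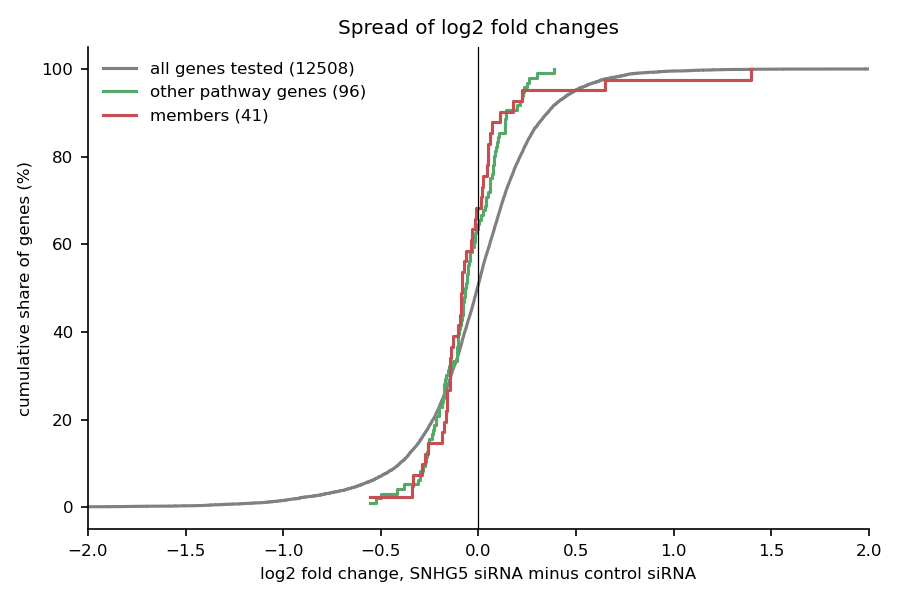
Cumulative share of genes (%) against the log2 fold change of SNHG5 siRNA over control siRNA, for the 41 genes (red), 96 other ribosome biogenesis genes (green) and all 12508 tested genes (grey). The red line is steeper than the grey one and lies above it at 0 (28 of 41 below 0), and its top steps on the right are TCOF1 and NOLC1.

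The promoters of many of these genes hold the hexamer CACGTG, the canonical E-box bound by MYC and USF family factors. In RefSeq's GRCh38.p14 windows of 300 bases, from 250 before to 50 after the start site, 32 of the 41 genes matched, and 12 of these (37.5%) held at least 1 copy, which reads the same on both strands. The share was 10.2% of 9938 windows of tested genes and 7.43% of all 27305 windows. A GC box, GGGCGG on either strand, was in 78.1% of the windows of the group, 70.4% of those of tested genes and 44.6% of all. The hexamers were searched separately, so overlapping copies count for both. NOLC1, TCOF1, RRP12, RRS1 and BOP1, which passed, had no window, so whether they hold an E-box is not known here. The windows below are those of the genes that passed and hold an E-box, which is in capitals.

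BYSL, GRCh38.p14 chr6:41921515-41921544, plus strand: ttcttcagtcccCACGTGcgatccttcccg
NOP10, GRCh38.p14 chr15:34343130-34343159, minus strand: gaaattgacgaaCACGTGacgcggtcgggc
NOP10, GRCh38.p14 chr15:34343289-34343318, minus strand: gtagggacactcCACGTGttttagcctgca
NOP2, GRCh38.p14 chr12:6568242-6568271, minus strand: gctaggtccggattgCACGTGgagggccgc
PES1, GRCh38.p14 chr22:30591880-30591909, minus strand: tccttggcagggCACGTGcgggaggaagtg
RRP9, GRCh38.p14 chr3:51941892-51941921, minus strand: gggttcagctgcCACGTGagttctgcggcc
UTP14A, GRCh38.p14 chrX:129905914-129905943, plus strand: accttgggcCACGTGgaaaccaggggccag
UTP20, GRCh38.p14 chr12:101280083-101280112, plus strand: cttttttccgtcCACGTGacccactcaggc
WDR43, GRCh38.p14 chr2:28894658-28894687, plus strand: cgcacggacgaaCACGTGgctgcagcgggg

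Counted from the start site as base 1, the E-box began at base -5 in RRP9, -10 in UTP20, -11 in the first window of NOP10, 4 in WDR43 and 14 in PES1. It began farther away in BYSL (29), NOP2 (36), the second window of NOP10 (-170) and UTP14A (-241). In the 12 genes with an E-box, 1 rose, 7 fell and 4 (FBL, NOP14, UTP4 and UTP18) did not pass, with a median log2 fold change of -0.15. In the 20 genes without one, 1 rose, 3 fell and 16 did not pass, with a median of -0.07. NOLC1 and TCOF1, which rose, are in neither count for lack of a window. Among all tested genes the split was smaller: 18.6% of 1014 genes with an E-box rose and 21.1% fell, against 20.9% and 18.9% of the 8924 without. Many of these calls were not stable. With an E-box, only NOP2 and UTP14A passed in all 15 alternatives. PES1, UTP20 and WDR43 passed in 2 and NOP10 in 3 of the 6 fits without 1 library. Without an E-box, DKC1 and UTP15 passed in all 15 alternatives, and WDR3 and WDR75 in 1 of those 6 fits. No test was made between the genes of the group with and without an E-box.

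The largest changes of the group were in the nucleolar phosphoproteins NOLC1 and TCOF1. NOLC1 (also Nopp140; ENSG00000166197, GRCh38 chr10:102152176-102163871, plus strand) binds box C/D and box H/ACA particles in the nucleolus and Cajal bodies. TCOF1 (ENSG00000070814, GRCh38 chr5:150357629-150400308, plus strand) encodes treacle, which works with RNA polymerase I and is mutated in Treacher Collins syndrome. NOLC1 was measured at 97.8, 92.5 and 85.6 CPM in control siRNA replicates 1 to 3 and at 244, 240.02 and 243 CPM in SNHG5 siRNA replicates 1 to 3. Every SNHG5 siRNA library lay far above every control library. NOLC1 rose 2.64-fold, with a log2 fold change of 1.40 ± 0.056 (SE; edgeR adjusted p = 1.22e-12), the 12th highest of the 12508 tested genes. TCOF1 was at 97.8, 97.2 and 86.0 CPM in control siRNA and at 142, 149 and 149 CPM in SNHG5 siRNA, again with no overlap between the groups. TCOF1 rose 1.57-fold, with a log2 fold change of 0.65 ± 0.06 (edgeR adjusted p = 7.10e-08). Over the 15 alternative settings, the log2 fold change of NOLC1 stayed between 1.35 and 1.44 and that of TCOF1 between 0.59 and 0.75, and both passed in each.

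**Figure D3:**
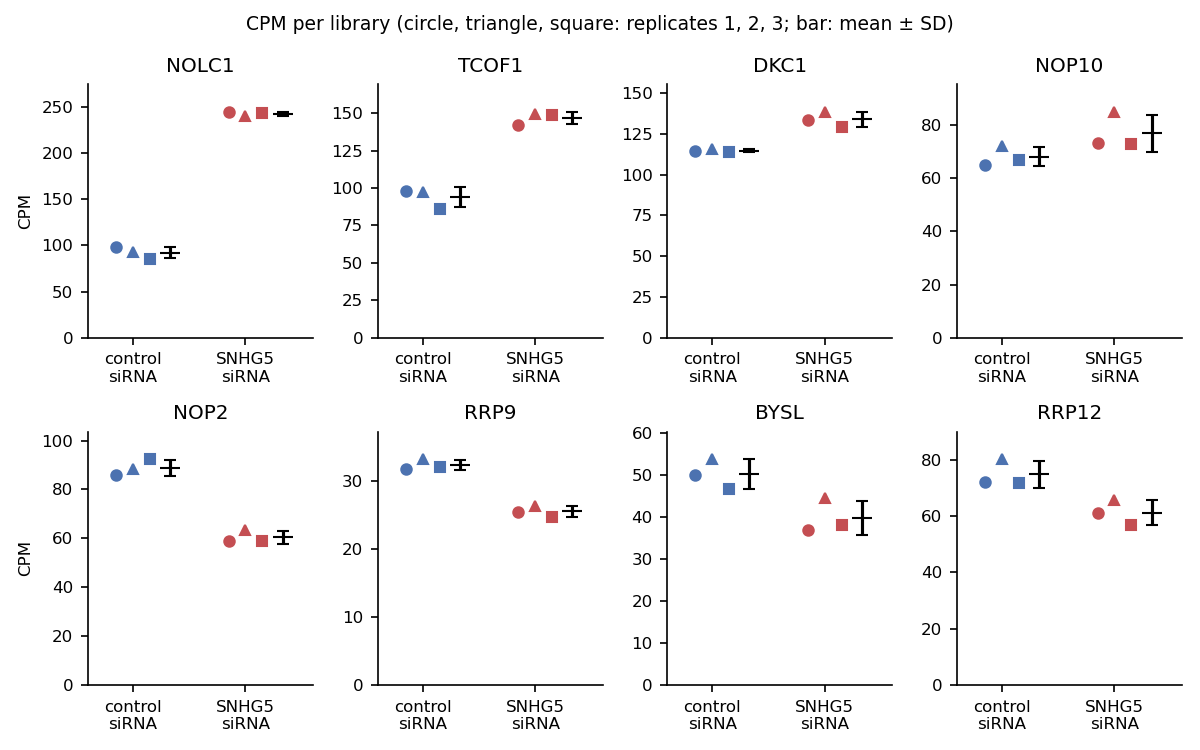
CPM per library of NOLC1, TCOF1, DKC1, NOP10, NOP2, RRP9, BYSL and RRP12; symbols are replicates 1, 2 and 3 of control siRNA (blue) and SNHG5 siRNA (red), and bars show the mean ± SD. The red points of the top row lie above the blue ones and those of the bottom row below them, with no overlap, and the triangle (replicate 2) is the highest red point for every gene shown except NOLC1.

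Of the 5 genes of the box H/ACA particle, 2 rose (DKC1 and NOP10), 0 fell and 3 did not pass. The share that rose was 40%, against 20.3% of all tested genes. DKC1 (GRCh38 chrX:154762742-154777689, plus strand) encodes dyskerin, the pseudouridine synthase of the particle, which is also part of telomerase. DKC1 was at 115 ± 0.984 CPM in control siRNA and 134 ± 4.67 CPM in SNHG5 siRNA (n = 3), a log2 fold change of 0.22 ± 0.05 (edgeR adjusted p = 0.00202). All 3 SNHG5 siRNA libraries lay above all 3 controls, and DKC1 passed in all 15 alternatives. NOP10, the smallest core protein, was at 65.0, 71.9 and 67.0 CPM in control siRNA and at 73.0, 84.9 and 72.6 CPM in SNHG5 siRNA. The lowest SNHG5 siRNA library of NOP10 lay just above the highest control, and replicate 2 stood well above the others of its group. The log2 fold change of NOP10 was 0.18 (edgeR adjusted p = 0.0416). It did not pass when SNHG5 siRNA replicate 2, control replicate 1 or control replicate 3 was left out, with log2 fold changes of 0.10 to 0.17 (edgeR adjusted p from 0.125 to 0.163), the lowest without SNHG5 siRNA replicate 2. Of the 15 alternatives, NOP10 passed in 8.

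GAR1, another core protein of the same particle, was at 37.1, 40.2 and 42.8 CPM in control siRNA and at 35.3, 39.6 and 32.1 CPM in SNHG5 siRNA. The groups of GAR1 overlapped through SNHG5 siRNA replicate 2, and it did not pass (log2 fold change -0.16, edgeR adjusted p = 0.106). Without that library its log2 fold change was -0.24 (edgeR adjusted p = 0.00380). The core protein NHP2 and NAF1, which takes part in assembly and leaves before GAR1 joins, had log2 fold changes of -0.01 and 0.06 and did not pass. Their signs changed in the fits to FPKM. In the same core particle, then, DKC1 and NOP10 rose while the value of GAR1 lay below 0; the difference between these genes was not tested.

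Of the box C/D core genes, FBL, NOP56 and NOP58, 0 of 3 passed, against 40.2% of all tested genes. FBL, which encodes the methyltransferase fibrillarin, was at 119, 127 and 121 CPM in control siRNA and at 119, 135 and 117 CPM in SNHG5 siRNA. The groups of FBL overlapped, and its log2 fold change was 0.01, with a 95% interval from -0.11 to 0.14. NOP56 and NOP58, the paired scaffold proteins of the particle, had log2 fold changes of -0.06 (95% interval from -0.18 to 0.05) and 0.04 (from -0.07 to 0.16).

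Of the 5 genes listed under RNA polymerase I, which do not include TCOF1, 0 passed, against 40.2% of all tested genes. TAF1D, a subunit of the promoter selectivity factor SL1, was at 65.5, 59.5 and 63.6 CPM in control siRNA and at 58.2, 57.2 and 57.2 CPM in SNHG5 siRNA. All 3 SNHG5 siRNA libraries of TAF1D lay below the controls, with a log2 fold change of -0.13 (edgeR adjusted p = 0.0895). TAF1D passed with upper quartile scaling (-0.17, edgeR adjusted p = 0.0262), with the GC trend removed (-0.18, edgeR adjusted p = 0.0137) and in the filtered limma fits to FPKM (-0.15 and -0.16, adjusted p = 0.0467 and 0.0470). POLR1E, which encodes the PAF53 subunit, was at 58.0, 56.6 and 53.7 CPM in control siRNA and at 51.4, 50.5 and 50.5 CPM in SNHG5 siRNA. It too was lower in all 3 SNHG5 siRNA libraries, with a log2 fold change of -0.14 (edgeR adjusted p = 0.0574), and it passed without control siRNA replicate 3 (-0.17, edgeR adjusted p = 0.0377). POLR1E also passed with upper quartile scaling (-0.18, edgeR adjusted p = 0.0172) and with the GC or the length trend removed (-0.14 and -0.13, edgeR adjusted p = 0.0391 and 0.0455). The catalytic subunits POLR1A and POLR1B had log2 fold changes of -0.08 and 0.05, and UBTF, the upstream binding factor of the ribosomal DNA, of 0.05.

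Genes of small subunit assembly held most of the falls: of 15, 9 fell, 0 rose and 6 did not pass, with a median log2 fold change of -0.15. The share that fell was 60%, against 19.9% of all tested genes and 36.4% of the 33 other small subunit genes described below. Of those others 12.1% rose, against 20.3% of all tested genes. This and the other role lists were made with earlier results of these data known, so their shares are a description and no test. RRP9, the U3-specific snoRNP protein, was at 32.4 ± 0.804 CPM in control siRNA and 25.6 ± 0.823 CPM in SNHG5 siRNA (log2 fold change -0.34, edgeR adjusted p = 8.52e-04). BYSL (bystin), a factor of late 40S maturation, was at 50.1 ± 3.55 and 39.8 ± 4.11 CPM (-0.34, edgeR adjusted p = 0.00153). RRP12, needed for export of the precursor subunits, was at 74.7 ± 4.79 and 61.2 ± 4.55 CPM (-0.29, edgeR adjusted p = 0.00176). All 3 genes passed whichever library was left out, and none of them passed in the limma fits to FPKM, where the log2 fold change shrank to as little as -0.17 for RRP9, -0.21 for BYSL and -0.15 for RRP12 (limma adjusted p up to 0.107, 0.162 and 0.173).

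UTP14A and UTP15 are components of the small subunit processome, the large particle around the U3 snoRNA. UTP14A was at 42.9 ± 0.636 CPM in control siRNA and 35.9 ± 0.782 CPM in SNHG5 siRNA (log2 fold change -0.26, edgeR adjusted p = 0.00272). UTP15 was at 32.2 ± 2.09 and 26.6 ± 1.27 CPM (-0.28, edgeR adjusted p = 0.00718). Both passed in all 15 alternatives. Their controls and SNHG5 siRNA libraries did not overlap.

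The other 4 falls of small subunit genes were smaller, and each was lost when certain single libraries were left out. UTP20, a large processome scaffold, was at 109, 106 and 108 CPM in control siRNA and at 97.6, 82.5 and 104 CPM in SNHG5 siRNA. Here SNHG5 siRNA replicate 2 was the lowest library, and without it the log2 fold change of UTP20 went from -0.19 to -0.10 (edgeR adjusted p from 0.0351 to 0.141). It also did not pass without any 1 of the 3 controls (edgeR adjusted p from 0.0621 to 0.106). WDR3 was at 76.3, 76.7 and 76.2 CPM in control siRNA and at 68.1, 67.0 and 71.8 CPM in SNHG5 siRNA. WDR43 was at 107, 107 and 112 CPM in control siRNA and at 93.4, 99.8 and 98.9 CPM in SNHG5 siRNA. WDR75 was at 72.7, 71.3 and 74.3 CPM in control siRNA and at 66.8, 66.5 and 64.0 CPM in SNHG5 siRNA. These 3 WD repeat proteins of the processome were lower in every SNHG5 siRNA library than in any control, by log2 fold changes of -0.15, -0.16 and -0.15 (edgeR adjusted p = 0.0403, 0.0250 and 0.0428). WDR3 passed in 1 of the 6 fits that left out a library, without SNHG5 siRNA replicate 3, WDR75 in 1, without SNHG5 siRNA replicate 2, and WDR43 in 2, without SNHG5 siRNA replicate 2 or 3. Their log2 fold changes in those that did not pass were -0.17 to -0.12. Over all 15 alternatives UTP20 passed in 8, WDR3 in 6, WDR43 in 11 and WDR75 in 8.

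Among the 6 small subunit genes that did not pass, UTP4 was at 87.8, 90.4 and 88.0 CPM in control siRNA and at 84.3, 84.8 and 81.2 CPM in SNHG5 siRNA. UTP4, the cirhin subunit of the processome, was lower in every SNHG5 siRNA library, by a log2 fold change of -0.09 (edgeR adjusted p = 0.198). NOP14, UTP3 and RRP7A were at -0.10, -0.04 and -0.03, and UTP18 and UTP6 at 0.02 and 0.11 (log2 fold changes, edgeR adjusted p from 0.15 to 0.866). UTP6 had the highest value among the small subunit genes. The number of small subunit genes that fell was 5 without control siRNA replicate 1, 2 or 3, 6 without SNHG5 siRNA replicate 1, and 4 or 5 in the limma fits to FPKM. Of all tested genes, 15.5% to 16.4% fell without 1 control library and 16.0% without SNHG5 siRNA replicate 1. In the limma fits 9.95% to 13.8% did.

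**Figure D4:**
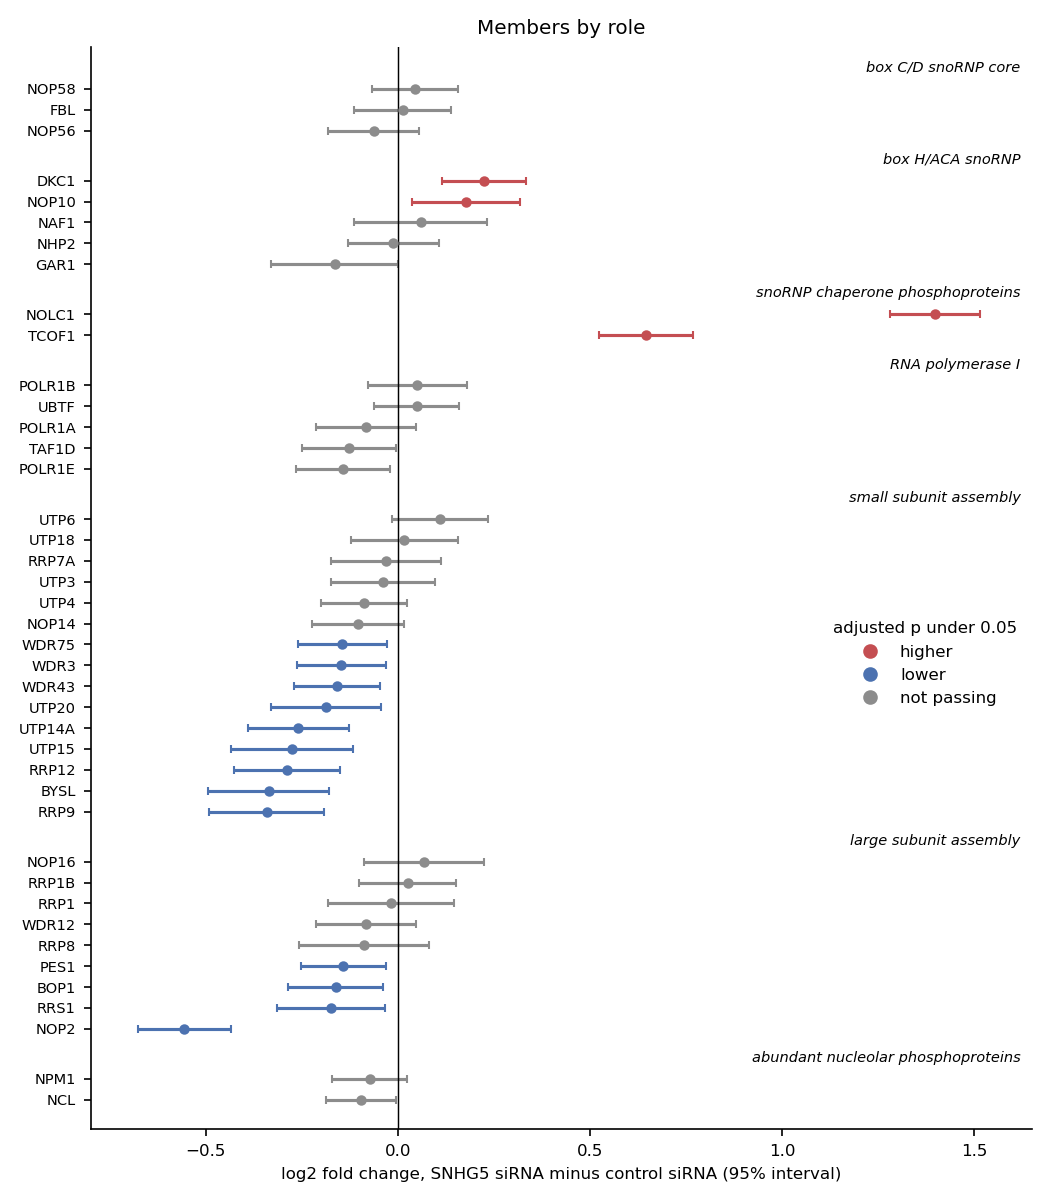
Log2 fold change of SNHG5 siRNA over control siRNA for each of the 41 genes, grouped by role; points are edgeR estimates and bars their 95% intervals, in red for genes that rose, blue for genes that fell and grey for genes that did not pass. NOLC1 and TCOF1 lie farthest right, NOP2 farthest left, and 9 of the 15 small subunit genes are blue.

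Of 9 genes of large subunit assembly, 4 fell (NOP2, RRS1, BOP1 and PES1), 0 rose and 5 did not pass, with a median log2 fold change of -0.09. The share that fell was 44.4%, against 19.9% of all tested genes and 14.7% of the 34 other large subunit genes described below. NOP2 (ENSG00000111641, GRCh38 chr12:6556863-6568691, minus strand) encodes a methyltransferase that sets a 5-methylcytosine in the large ribosomal RNA, and its promoter window above holds an E-box. NOP2 was at 85.9, 88.2 and 92.5 CPM in control siRNA and at 59.1, 63.4 and 58.8 CPM in SNHG5 siRNA. The highest SNHG5 siRNA library lay well below the lowest control. The control level of NOP2 was 1.47 times that with SNHG5 siRNA, a log2 fold change of -0.56 ± 0.06 (edgeR adjusted p = 4.14e-07), the largest fall of the group. Its log2 fold change stayed between -0.60 and -0.44 in the 15 alternatives, and NOP2 passed in each.

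BOP1 and PES1 encode partners in the PeBoW complex, which WDR12 completes and which acts in processing of the large subunit RNAs. BOP1 was at 81.9, 85.3 and 80.6 CPM in control siRNA and at 69.9, 78.9 and 72.9 CPM in SNHG5 siRNA. PES1 was at 106, 102 and 100.4 CPM in control siRNA and at 91.7, 94.6 and 92.6 CPM in SNHG5 siRNA. Both were lower in every SNHG5 siRNA library, with log2 fold changes of -0.16 and -0.14 (edgeR adjusted p = 0.0356 and 0.0385). WDR12 had a log2 fold change of -0.08 (edgeR adjusted p = 0.301). BOP1 passed only without SNHG5 siRNA replicate 2 when 1 library was left out (edgeR adjusted p from 0.0501 to 0.187 in the other 5 fits). PES1 passed only when SNHG5 siRNA replicate 2 or control replicate 3 was left out, and had an edgeR adjusted p from 0.0875 to 0.162 in the other 4. Each passed in 6 of the 15 alternatives, and in the limma fits to FPKM the log2 fold change of BOP1 was as small as -0.025 and that of PES1 as small as -0.048.

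RRS1, a factor that brings the 5S RNA into the large subunit, was at 41.1, 46.1 and 42.8 CPM in control siRNA and at 37.8, 40.3 and 37.2 CPM in SNHG5 siRNA. Its SNHG5 siRNA libraries were all below the controls, by a log2 fold change of -0.17 (edgeR adjusted p = 0.0439). RRS1 did not pass when SNHG5 siRNA replicate 1 or 3, or control replicate 2 or 3, was left out (edgeR adjusted p from 0.0763 to 0.234), and it passed in 5 of the 15 alternatives. In the limma fits to FPKM its log2 fold change was as small as -0.074 (limma adjusted p up to 0.528). RRP8, RRP1, RRP1B and NOP16 had log2 fold changes of -0.09, -0.02, 0.03 and 0.07 and did not pass.

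The abundant nucleolar proteins NCL and NPM1 did not pass, though their counts were the highest of the group. NCL was at 1371, 1383 and 1327 CPM in control siRNA and at 1273, 1291 and 1255 CPM in SNHG5 siRNA. NPM1 was at 1247, 1319 and 1333 CPM in control siRNA and at 1204, 1284 and 1220.1 CPM in SNHG5 siRNA. The groups of NCL did not overlap, and those of NPM1 did through control siRNA replicate 1 and SNHG5 siRNA replicate 2. Their log2 fold changes were -0.10 and -0.07 (edgeR adjusted p = 0.0905 and 0.226). Without SNHG5 siRNA replicate 2 both passed, at -0.10 and -0.098 (edgeR adjusted p = 0.0323 and 0.0438). GENCODE lists 45 pseudogenes named after NPM1, 3 after NOP56 and 2 each after NCL, NHP2 and PES1, so reads of these genes may be split between copies and their values are uncertain.

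Other ribosome biogenesis genes, listed by function, showed a like spread. Of 98 listed, 97 were found and 96 tested, of which 10 rose (10.4%), 26 fell (27.1%) and 60 did not pass. Their median log2 fold change was -0.065. Of all tested genes, 20.3% rose and 19.9% fell. Of 33 other small subunit genes 4 rose (12.1%) and 12 fell (36.4%). DDX47, a helicase, led the falls, at 174 ± 4.68 CPM in control siRNA and 123 ± 6.02 CPM in SNHG5 siRNA. Its log2 fold change was -0.50 (edgeR adjusted p = 6.47e-07), and that of PNO1, which helps place the late cleavage enzyme, was -0.42. Of 34 other large subunit genes 2 rose (5.88%) and 5 fell (14.7%), a smaller share of falls than among all tested genes. NOL9, a kinase of the RNA precursor, led these falls, at 49.4 ± 1.43 CPM in control siRNA and 33.7 ± 1.33 CPM in SNHG5 siRNA. Its log2 fold change was -0.56 (edgeR adjusted p = 1.32e-06), and that of MRTO4 was -0.27. Over all the other ribosome biogenesis genes, with 1 library left out, the number that rose ranged from 5 to 10. The number that fell ranged from 17 (without control siRNA replicate 2) to 35 (without SNHG5 siRNA replicate 2). The count that rose was 5 without control siRNA replicate 1.

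Of 9 other RNA polymerase I genes 2 fell (22.2%, against 19.9% of all tested genes) and 0 rose (against 20.3%). POLR1C, a subunit shared with RNA polymerase III, was at -0.28, and RRN3, the initiation factor TIF-IA, at -0.22 (log2 fold changes). POLR1C did not pass when SNHG5 siRNA replicate 1, or control replicate 2 or 3, was left out (edgeR adjusted p from 0.0600 to 0.0643). Of 8 snoRNP assembly factors 2 rose (25%, against 20.3% of all tested genes) and 3 fell (37.5%, against 19.9%). SHQ1, a chaperone of dyskerin before the box H/ACA particle forms, rose from 23.2 ± 2.02 to 28.5 ± 0.606 CPM (log2 fold change 0.30, edgeR adjusted p = 0.00614). NUFIP1, an adaptor in box C/D assembly, fell from 16.3 ± 0.779 to 13.2 ± 0.890 CPM (-0.30, edgeR adjusted p = 0.0104). Of 12 genes of the RNA exosome, which trims precursor RNAs, 2 rose (16.7%, against 20.3%) and 4 fell (33.3%, against 19.9%). The falls were led by EXOSC4 (-0.38) and EXOSC5 (-0.26). EXOSC5 did not pass when SNHG5 siRNA replicate 1 or 3, or control replicate 2, was left out (edgeR adjusted p from 0.0558 to 0.128).

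Of the 41 genes, 6 hold snoRNA genes within their own span on the same strand in GENCODE v29, 25 in all: TAF1D with 8, NOP56 with 5, NOP58 with 4, NCL and WDR43 with 3 each and DKC1 with 2. DKC1 rose, WDR43 fell and 4 did not pass. Of all 225 tested coding genes that hold snoRNA genes, 40 rose (17.8%) and 49 fell (21.8%), close to the shares of all tested genes.

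The title of the series names miR-92a-3p, whose seed (bases 2 to 8) is in capitals in the line below. Its 7-base site GTGCAAT was in the annotated 3' untranslated region of 3 of the 41 genes, NOP14, POLR1A and TAF1D, against 13.2% of 12252 tested genes with such a region.

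miR-92a-3p: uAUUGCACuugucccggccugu

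None of the 3 genes with the site passed, against 40.2% of all tested genes. Another 7-base word, TCGGAGA, was picked out in an earlier scan of these same data, in which genes that hold it had higher values with SNHG5 siRNA. Its genes are therefore a description and no test. The word was in 2.20% of the same 12252 genes, with a median log2 fold change of 0.14, against -0.0075 in the rest. It was in 2 of the 41 genes, NOLC1 and NOP10, both among the 4 that rose; these sites are shown with the word in capitals.

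NOLC1, GRCh38 chr10:102162304-102162310, plus strand: gtgatgaTCGGAGActactta
NOP10, GRCh38 chr15:34341920-34341926, minus strand: ttaccccTCGGAGActccgta

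A second word of that scan, ACACGAA, whose 291 genes had a median log2 fold change of -0.21, was in 0 of the 41. TCOF1 and DKC1, which rose, hold neither word, and neither does NOP2. Some genes of the group share exons with a gene on the opposite strand: RMND5B covers 27.4% of the exon bases of NHP2, SPAG17 17.1% of those of WDR3, and HIGD2A and ARL10 overlap those of NOP16. Whether counting used strand is not given in the sources used here, so reads of these pairs may not be told apart.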

How the data were processed

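RNA was measured by mRNA-seq in 6 KGN libraries. Per the submitters' processing notes, reads were trimmed with Trimmomatic and the build was GRCh38; the aligner, the counting program and its gene models are not given in the sources used here. Raw counts, as deposited, were whole numbers, not normalized, and covered 20030 gene names. The deposited FPKM were scaled to length and depth by the authors and were used for levels and alternatives. They were not a plain rescaling of the deposited counts, so fits to FPKM and to counts can differ for that reason too.

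TMM scaling was done in edgeR 4.0.16 under R 4.3.3. Genes passing filterByExpr (12508, with 7522 left out) were tested with its quasi-likelihood test (2-sided, group only), adjusted by the Benjamini-Hochberg method, and passed at an adjusted p under 0.05. Log2 fold changes and SE come from that fit, and CPM were counts over library totals times the TMM factor. The fit was tested on simulated data. Alternatives used DESeq2 1.42.0, upper quartile scaling, no filter, limma 3.58.1 on log2(FPKM + 1) or log2(FPKM + 0.1), GC or length trends removed (GENCODE 29), a replicate block, and each library left out. The members and lists were chosen with earlier results of these data known. CPM per library are printed for members passing with an absolute log2 fold change of at least 0.4, the member of highest FPKM in each role, and members whose call changed when 1 library was left out; other pathway genes were the 2 largest changes per list. RRP9, BYSL, RRP12, UTP14A, UTP15, DKC1 and others are given by mean ± SD or log2 fold change.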

Additional observations from a re-analysis of the deposited data

How the results depend on the processing

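Of the 17 calls among the 41 genes, 9 held in all 6 fits that left out 1 library and 6 (DKC1, NOLC1, TCOF1, UTP14A, UTP15 and NOP2) in all 15 alternatives. The number that fell, 13, was 6 in limma on log2(FPKM + 1), 7 on log2(FPKM + 0.1) and 5 on log2(FPKM + 1) with no filter, and 6 to 14 with 1 library left out. The other pathway genes that rose, 10, were 6 with upper quartile scaling and 4, 4 and 4 in the FPKM fits, and 5 to 10 with 1 library left out; those that fell, 26, were 16 in the FPKM fit with no filter and 17 to 35 with 1 library left out. The causes were not tested.

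Signs turned only in genes that did not pass. With upper quartile scaling FBL was at -0.028, UTP18 at -0.024 and RRP1B at -0.016. With the GC trend removed NOP58 was at -0.010, NHP2 at 0.038, RRP7A at 0.027, UTP18 at -0.010 and RRP1 at 0.068, and with the length trend removed NHP2 was at 0.0035. In the FPKM fits (with +1, +0.1, and +1 with no filter) NHP2 was at 0.076, 0.076 and 0.076, NAF1 at -0.061, -0.076 and -0.061, RRP7A at 0.046, 0.051 and 0.046, UTP18 at -0.043, -0.045 and -0.043, and RRP1 at 0.11, 0.11 and 0.11. With 1 library left out, FBL ranged from -0.053 to 0.050, NHP2 from -0.050 to 0.024, NAF1 from -0.015 to 0.12, RRP7A from -0.088 to 0.036, UTP3 from -0.087 to 4.64e-04, UTP18 from -0.037 to 0.080, RRP1 from -0.089 to 0.061 and RRP1B from -0.032 to 0.058.

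Same-numbered control and SNHG5 siRNA libraries deviated together with correlations of 0.046, 0.13 and 0.026, and 1 of the 3 controls correlated best with another number, so the numbers were not taken to pair them. With a replicate block 5714 genes passed in all, against 5026, and of the 41 genes 4 rose and 15 fell. POLR1E (-0.14, edgeR adjusted p = 0.0360) and NCL (-0.10, edgeR adjusted p = 0.0439) passed there and not without it. The lowest mean level of the 41 genes, that of RRP8, was 21.3 CPM, so none was near the floor of the filter on low counts.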
